A study of Mus musculus with 9 samples.

Results

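The p53 target genes described here are 37 genes of the deposited count table: Trp53, which encodes p53, genes that feed back on p53, and genes that p53 is known to activate directly. They were taken from a list of symbols and matched to the table by Ensembl identifier. All 37 were found among 52661 gene rows, and all 37 were among the 18408 genes that passed a filter on low counts and were tested. RNA had been sequenced from cultured mouse embryonic fibroblasts, connective tissue cells, of strain C57BL/6, immortalised in every group with T/t antigen. There were 3 groups of 3 libraries: Ctr1 -/- cells given the copper chelator bathocuproine disulfonic acid (BCS) at 500 uM for 48 h, Ctr1 -/- cells (called Ctr1-null here), and wild type cells. Ctr1, encoded by Slc31a1, is the transporter through which most copper enters mammalian cells. The sample titles of the null cells refer to a floxed Ctr1 allele, the series record gives the dose in mM in place of uM, and no wild type cells received BCS, so the response to the chelator could be measured in null cells alone. Nothing in the labels says that the 3 libraries of a group came from separate cultures, so p-values measure the spread between these libraries, which may be technical.

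p53 is a transcription factor that is bound and held in check by the ubiquitin ligase Mdm2 and its partner Mdm4, and Mdm2 is in turn one of its targets. When p53 is stabilised, usually by DNA damage or other stress, it raises genes for cell cycle arrest, apoptosis, DNA repair and metabolism through a paired 10-base element in their promoters or introns. In cells immortalised with the large T antigen of SV40, p53 protein is bound by that antigen and its activity is restrained, and the mRNA of Trp53 does not report p53 activity, which is set mostly at the protein level.

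The library totals ran from 38962036 to 57206337 counts, and levels are given as CPM, counts scaled to a common depth with TMM factors. Slc31a1 was at 3.24, 2.54 and 1.69 CPM in BCS-treated Ctr1-null cells and at 2.54, 3.88 and 1.40 CPM in Ctr1-null cells, against 56.1, 54.8 and 54.9 CPM in wild type cells, as the labels say. Wild type replicate 1 stood apart from the other wild type libraries. On the first principal component (46.2% of the variance) it was at -2.04, against 67.1 and 63.3, within the range of the Ctr1-null libraries (9.05, -10.2 and -32.0). On the second it was at -31.0, again within their range (-34.0, -5.69 and -21.2). The counts of calls against wild type are therefore also given without it. Of the 8 fibroblast markers, collagen and vimentin genes were high, and their summed level was 8379 to 10272 CPM with BCS, 8001 to 9657 in Ctr1-null and 9022 to 10542 in wild type cells. Thy1 and Dcn were near 0 in every group (0.297 to 0.496 CPM for Thy1).

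In Ctr1-null cells, p53 target genes lay higher with BCS than without it. Cdkn1a and Sesn2 rose, and 30 of the 37 members had a positive log2 fold change, with a median of 0.30 against 0.002 for all genes tested. The apoptosis genes were the most uniform: all 12 had a positive fold change, and in 10 of them every BCS-treated library lay above every untreated Ctr1-null library. Trp53 itself did not share the direction, with a log2 fold change of -0.14 ± 0.09 (SE, n = 3 libraries a group). A gene is called here at a Benjamini-Hochberg adjusted p under 0.05 in edgeR's quasi-likelihood test over all genes. In this comparison 2 of 37 members were called, against 0.0543% of all genes tested. The 3 BCS-treated libraries lay wholly above the 3 Ctr1-null libraries in 21 members, against 13.4% of all genes, and wholly below them in 1 member, Plk3, against 10.9% of all genes. The summed level of neural markers, most of it from Nes, also differed, at 132 to 157 CPM with BCS against 182 to 214 CPM in Ctr1-null cells. Its part in these counts was not tested. In RNA from whole cultures, fewer cells expressing a gene and less RNA per cell cannot be told apart.

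Cdkn1a encodes p21, the cyclin-dependent kinase inhibitor through which p53 halts the cell cycle (ENSMUSG00000023067.13, GRCm38 chr17:29090976-29100727, plus strand). It was at 396, 395 and 441 CPM in BCS-treated cells, against 214, 231 and 242 CPM in Ctr1-null cells and 265, 252 and 242 CPM in wild type cells. The BCS-treated libraries were the 3 highest of the 9 and the Ctr1-null libraries the 3 lowest, with Ctr1-null replicate 3 only just below wild type replicate 3. Against Ctr1-null cells the mean was 1.79-fold higher, with a log2 fold change of 0.84 ± 0.08 (95% interval 0.66 to 1.02, edgeR adjusted p = 0.0117).

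Sesn2 encodes sestrin 2, a stress-induced inhibitor of mTORC1 signalling that is also known as a target of ATF4 and NRF2 (ENSMUSG00000028893.8, chr4:132492032-132510501, minus strand). Its level was 59.8, 61.9 and 64.2 CPM with BCS, against 36.4, 41.1 and 40.3 CPM in Ctr1-null cells and 45.2, 47.5 and 45.5 CPM in wild type cells. None of the 3 groups overlapped, and the order was BCS-treated, wild type, Ctr1-null. The log2 fold change against Ctr1-null cells was 0.66 ± 0.07 (SE, 95% interval 0.50 to 0.82, edgeR adjusted p = 0.0161).

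Neither call held in every alternative analysis. Cdkn1a was called in 13 of 19 alternative analyses and Sesn2 in 11 of 19. Without Ctr1-null replicate 1, 2 or 3, edgeR's adjusted p was 0.0557, 0.0714 and 0.0738 for Cdkn1a and 0.0557, 0.0714 and 0.0837 for Sesn2. Without BCS-treated replicate 1 or 3 it was 0.0992 and 0.107 for Cdkn1a and 0.106 and 0.107 for Sesn2, and Sesn2 alone also lost its call without BCS-treated replicate 2 (0.0789) or wild type replicate 3 (0.0531). The fold changes themselves stayed between 0.78 and 0.89 for Cdkn1a and between 0.61 and 0.70 for Sesn2. With the replicate number as a block it was 0.0930 for both. Without wild type replicate 1, 7 members were called (Cdkn1a, Mdm2, Perp, Phlda3, Polk, Sesn2 and Zfp385a), against 1.00% of all genes. DESeq2 on all libraries called 17, all with positive fold changes, against 3.86% of all genes.

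**Figure D1:**
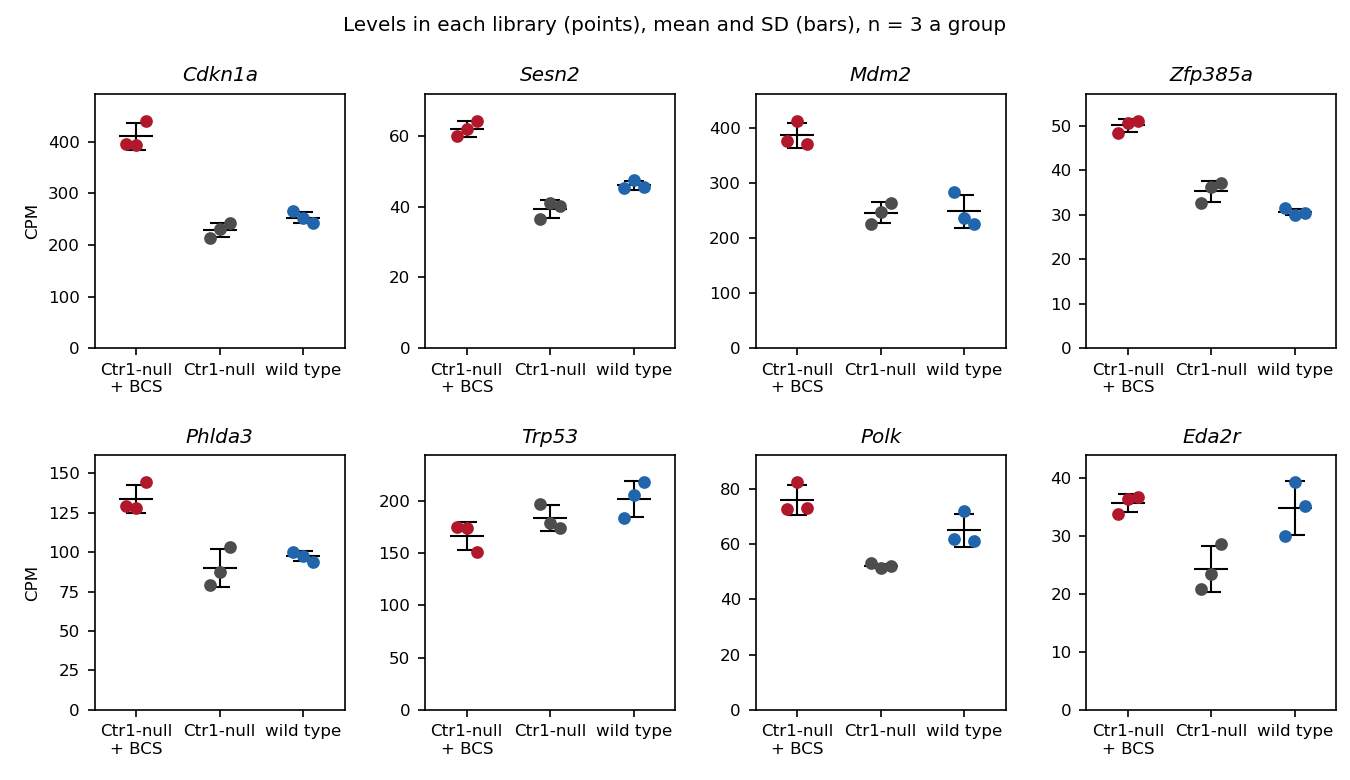
CPM (y axis, from 0) of 8 members in each library, with the group mean and SD as bars (n = 3 a group), for BCS-treated Ctr1-null cells, Ctr1-null cells and wild type cells from left to right. BCS-treated libraries are the 3 highest for Cdkn1a, Sesn2, Mdm2, Zfp385a, Phlda3 and Polk, and Trp53 runs the other way in the group means (167, 183 and 202 CPM).

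The RefSeq promoter windows of the GRCm38.p6 build (250 bases before to 50 after each start) were searched for the p53 half-site. This is the 10-base consensus element, which reads the same on both strands. Of the 37 members, 29 had a window. An exact half-site stood in 12 of these 29 genes (41.4%), against 2582 of 27025 genes with a window (9.55%). A full site, meaning 2 half-sites joined without a spacer with both core bases of each and at most 1 mismatch in all, stood in 3 members, Cdkn1a, Ccng1 and Rps27l, against 22 of the 27025 genes (0.0814%). The members were listed as known p53 targets, so shares above those of all genes come with the list. They do not bear on the response to BCS. The definition of the full site was chosen after the windows had been looked at, and such a match is a description of the letters, not evidence that p53 binds there in these cells. The 3 full sites are printed because they show the element in the genes that carry it most completely, each on its gene's strand with the site in capitals and 20 bases on either side.

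Cdkn1a: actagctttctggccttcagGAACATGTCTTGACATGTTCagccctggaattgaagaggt

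Ccng1: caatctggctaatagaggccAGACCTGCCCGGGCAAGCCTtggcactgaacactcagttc

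Rps27l: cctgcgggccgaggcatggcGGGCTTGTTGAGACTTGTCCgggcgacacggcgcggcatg

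The Cdkn1a stretch is chr17:29090908-29090967 on the plus strand, and GENCODE M21 has no gene across it. Its site lies at -51 to -32 from a RefSeq start, and the window of a downstream RefSeq start of Cdkn1a held no full site (at best 7 mismatches). The Ccng1 stretch is chr11:40755442-40755501 on the minus strand, with the site at -195 to -176 and again no annotated gene across it. The Rps27l stretch is chr9:66946276-66946335 on the plus strand, with the site at -117 to -98 from a RefSeq start, and it lies within the Rps27l gene but in none of its exons. Each site has 1 mismatch to the consensus, at base 11 in Cdkn1a, base 5 in Ccng1 and base 10 in Rps27l, counted from the first base in capitals. Of the other members called in any comparison, Mdm2 had an exact half-site beginning at -186, and the windows of Sesn2, Phlda3 and Zfp385a held none, which says only that these letters are not in those windows.

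Of the 6 genes of the p53 regulator loop, Mdm2, Trp53inp1 and Zfp385a lay higher in every BCS-treated library than in any Ctr1-null library, and Trp53, Mdm4 and Ppm1d overlapped. Trp53 (ENSMUSG00000059552.13, chr11:69580359-69591873, plus strand) was at 175, 174 and 151 CPM with BCS, against 198, 179 and 174 CPM in Ctr1-null cells and 184, 206 and 218 CPM in wild type cells. The first 2 groups overlapped, and every BCS-treated library lay below every wild type library. Neither Trp53 difference was called: edgeR's log2 fold change was -0.14 ± 0.09 against Ctr1-null (adjusted p = 0.529) and -0.28 ± 0.09 against wild type (adjusted p = 0.0707).

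Mdm2, the ubiquitin ligase that marks p53 for degradation (ENSMUSG00000020184.15, chr10:117688875-117710758, minus strand), was at 376, 413 and 371 CPM with BCS, against 226, 248 and 264 CPM in Ctr1-null cells and 283, 237 and 225 CPM in wild type cells. All 3 BCS-treated libraries stood well above the other 6, among which the groups overlapped. Its log2 fold change was 0.65 ± 0.10 against Ctr1-null, which missed the threshold (edgeR adjusted p = 0.0834), and 0.64 ± 0.10 against wild type, which passed it (edgeR adjusted p = 0.00763). The first became a call without wild type replicate 1 (adjusted p = 0.0224).

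Zfp385a, a zinc finger protein that binds p53 and is known to favour arrest over apoptosis genes (ENSMUSG00000000552.10, chr15:103313895-103340093, minus strand), was at 48.4, 50.7 and 51.1 CPM with BCS, against 32.6, 36.3 and 37.1 CPM in Ctr1-null cells and 31.5, 30.1 and 30.4 CPM in wild type cells. It was the one member with the order BCS-treated, Ctr1-null, wild type and no overlap between any groups. The log2 fold change was 0.50 ± 0.07 against Ctr1-null (edgeR adjusted p = 0.0675) and 0.71 ± 0.07 against wild type (adjusted p = 0.00290).

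Mdm4, which binds p53 and blocks its activation domain (ENSMUSG00000054387.13, chr1:132959484-133030561, minus strand), was at 128.5, 108 and 161 CPM with BCS, against 94.1, 116 and 132 CPM in Ctr1-null cells and 109, 86.2 and 84.0 CPM in wild type cells. Its groups overlapped throughout, and the fold changes of 0.22 ± 0.17 against Ctr1-null and 0.51 ± 0.17 against wild type were not called. Trp53inp1, a nuclear cofactor that promotes p53 phosphorylation, averaged 184 ± 26.3 CPM with BCS, against 110.3 ± 38.8 CPM in Ctr1-null and 108 ± 11.6 CPM in wild type cells (SD, n = 3). Its Ctr1-null libraries were uneven (65.6, 129 and 136 CPM), its BCS-treated libraries lay above all others, and edgeR's adjusted p was 0.215 against Ctr1-null and 0.0543 against wild type. Ppm1d, a phosphatase that dampens p53 signalling, averaged 22.1, 20.2 and 22.3 CPM in BCS-treated, Ctr1-null and wild type cells, with none of its differences called.

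**Figure D2:**
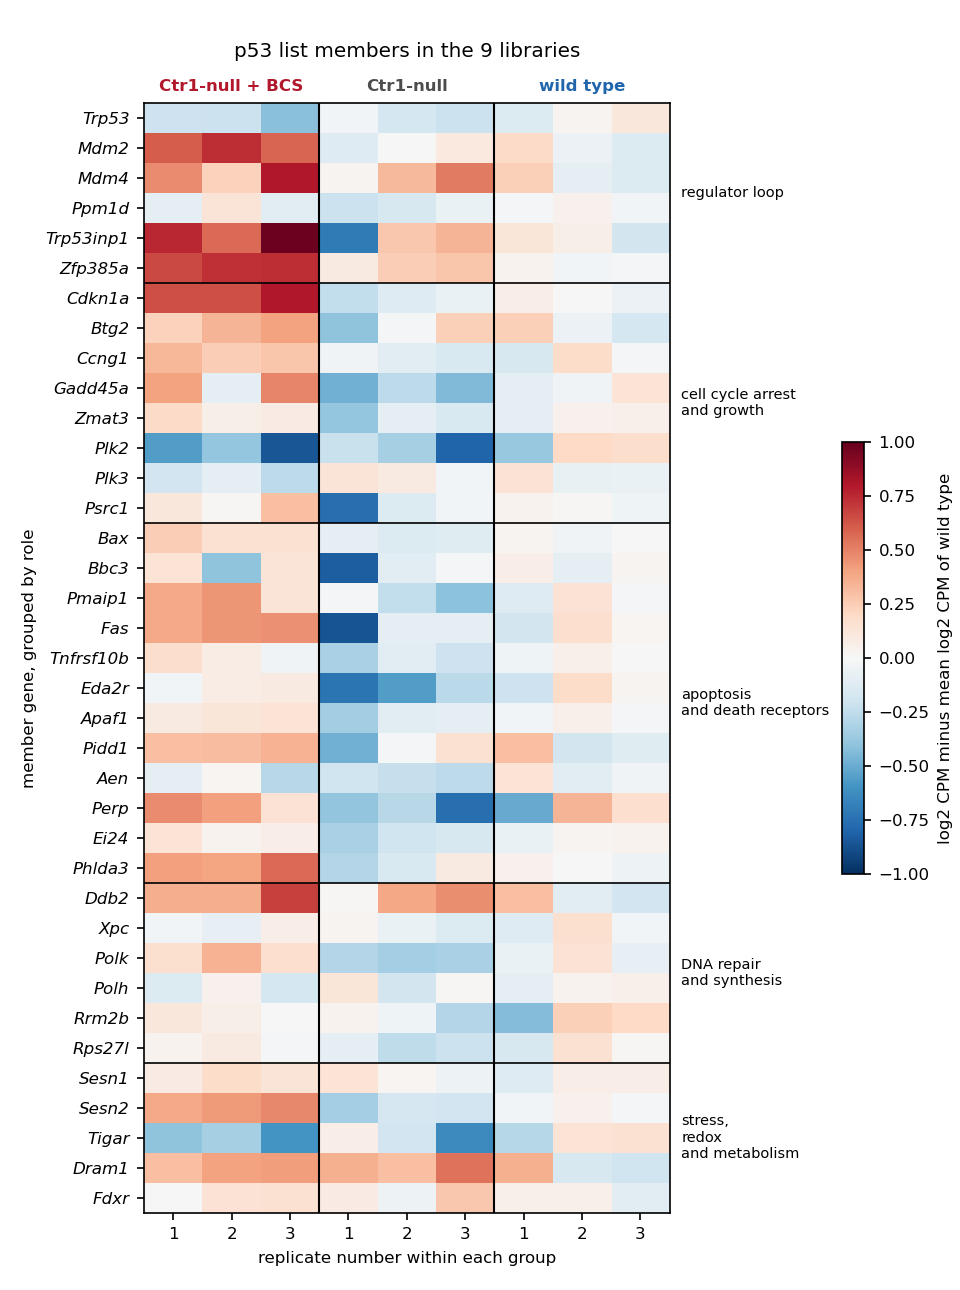
Log2 CPM of each of the 37 members (rows, by role) minus its mean log2 CPM in wild type cells, in the 9 libraries (columns, by group and replicate). Red is above and blue below the wild type mean on a scale from -1 to 1, and Mdm2, Trp53inp1, Zfp385a and Cdkn1a are red in all 3 BCS-treated libraries, while Eda2r, Polk and Gadd45a are blue in all 3 Ctr1-null libraries.

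Among the other arrest and growth genes, Ccng1, Gadd45a, Zmat3 and Psrc1 lay higher in every BCS-treated library than in any Ctr1-null library, and none was called. Ccng1, cyclin G1, a feedback partner of Mdm2 and the second most abundant member per kilobase of exon, averaged 648 ± 18.9 CPM with BCS, against 497 ± 19.3 CPM in Ctr1-null and 534 ± 64.8 CPM in wild type cells (log2 fold change 0.38 ± 0.09 against Ctr1-null, edgeR adjusted p = 0.138). Gadd45a, a growth arrest and DNA damage protein, averaged 10.8, 6.72 and 8.83 CPM in the same order of groups, and 19.1% of its exon length overlaps a noncoding gene on the opposite strand. Zmat3, an RNA-binding protein, averaged 153, 123 and 142 CPM, and Psrc1, a spindle protein, 84.3, 63.1 and 76.2 CPM. Btg2, an antiproliferative cofactor of mRNA decay, overlapped between all groups at means of 92.0, 71.6 and 73.9 CPM.

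The polo-like kinases were the members of this role that did not lie higher. Plk2 averaged 183 ± 29.1 CPM with BCS and 205 ± 41.1 CPM in Ctr1-null cells, against 280.2 ± 59.2 CPM in wild type cells, where replicate 1 was at 212 CPM and the others at 317 and 311 CPM. Plk3 averaged 14.0 ± 0.83 CPM with BCS, against 16.6 ± 0.92 CPM in Ctr1-null and 15.9 ± 1.40 CPM in wild type cells, and its BCS-treated libraries were the 3 lowest of 9. Neither was called, the log2 fold changes against Ctr1-null being -0.16 ± 0.19 for Plk2 and -0.24 ± 0.10 for Plk3.

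The death receptors and the core of the apoptosis pathway shared one direction with BCS. Fas, the receptor of Fas ligand, was at 33.7, 35.2 and 35.5 CPM with BCS, against 14.2, 24.2 and 24.2 CPM in Ctr1-null and 22.8, 29.1 and 26.2 CPM in wild type cells. Those BCS-treated libraries were close together and above the other 6, and Ctr1-null replicate 1 was the lowest of all. Tnfrsf10b, the TRAIL receptor, averaged 133, 109 and 126 CPM in BCS-treated, Ctr1-null and wild type cells. Eda2r, an ectodysplasin A2 receptor on the X chromosome (ENSMUSG00000034457.10, chrX:97333840-97377216, minus strand), was at 33.9, 36.5 and 36.7 CPM with BCS, against 20.8, 23.5 and 28.6 CPM in Ctr1-null and 29.9, 39.2 and 35.1 CPM in wild type cells. Its Ctr1-null libraries were the 3 lowest of 9, and its BCS-treated libraries lay within the wild type range.

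Bax, the pore-forming protein of the mitochondrial outer membrane, was at 132, 124 and 124 CPM with BCS, against 105, 101 and 103 CPM in Ctr1-null and 114, 109 and 112 CPM in wild type cells. The 3 groups did not overlap, and the difference was small, with a log2 fold change of 0.30 ± 0.06 against Ctr1-null (edgeR adjusted p = 0.0952). Apaf1, the scaffold of the apoptosome, had the same arrangement at means of 110.0, 89.4 and 102 CPM. The BH3-only genes were less even: Pmaip1 (Noxa) averaged 67.4 ± 7.47 CPM with BCS, against 46.4 ± 6.35 CPM in Ctr1-null and 54.0 ± 5.17 CPM in wild type cells, while Bbc3 (Puma) overlapped between all groups at 16.1, 13.5 and 16.4 CPM. Perp, a tetraspan membrane protein of cell junctions, had the largest log2 fold change of the role at 0.81 ± 0.21 and averaged 61.1, 34.9 and 49.4 CPM, with wild type replicate 1 at 33.7 CPM against 60.8 and 53.8 CPM in the other wild type libraries.

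Phlda3, a repressor of Akt signalling (ENSMUSG00000041801.5, chr1:135766119-135769136, plus strand), was at 129, 127.8 and 144 CPM with BCS, against 79.3, 87.7 and 103 CPM in Ctr1-null cells and 100.3, 97.3 and 94.0 CPM in wild type cells. All BCS-treated libraries lay above the other 6. The log2 fold change was 0.57 ± 0.10 against Ctr1-null (edgeR adjusted p = 0.0834) and 0.46 ± 0.10 against wild type (adjusted p = 0.0181). Ei24, a protein of the endoplasmic reticulum linked to autophagy (ENSMUSG00000062762.16, chr9:36779159-36797393, minus strand), was at 174, 161 and 165 CPM with BCS, against 126, 137 and 141 CPM in Ctr1-null and 151, 161 and 162 CPM in wild type cells, so that only the Ctr1-null libraries stood apart. Pidd1, which activates caspase 2, averaged 46.3 ± 0.74 CPM with BCS, against 34.9 ± 7.51 CPM in Ctr1-null and 37.6 ± 7.17 CPM in wild type cells, and Aen, an apoptosis nuclease, averaged 90.7, 83.5 and 98.2 CPM with BCS-treated libraries overlapping both other groups.

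Of the 6 DNA repair and synthesis genes 0 were called in any comparison, and Polk had the largest fold change with BCS. Polk, the translesion DNA polymerase kappa (ENSMUSG00000021668.15, chr13:96480690-96542579, minus strand), was at 72.7, 82.4 and 73.1 CPM with BCS, against 53.1, 51.4 and 52.0 CPM in Ctr1-null and 62.0, 71.9 and 61.4 CPM in wild type cells. The groups did not overlap, with Ctr1-null lowest, and the log2 fold change of 0.54 ± 0.08 against Ctr1-null missed the threshold (edgeR adjusted p = 0.0834), passing it without wild type replicate 1 (0.0325). Rps27l, a ribosomal protein paralog and the most abundant member per kilobase, averaged 142 ± 5.31 CPM with BCS, against 122 ± 7.24 CPM in Ctr1-null and 139 ± 15.2 CPM in wild type cells. Xpc (14.9, 14.5 and 15.1 CPM) and Ddb2 (7.86, 6.94 and 5.70 CPM), which recognise damage for nucleotide excision repair, Polh, the translesion polymerase eta (46.3, 48.8 and 49.2 CPM), and Rrm2b, a ribonucleotide reductase subunit (18.2, 16.4 and 17.9 CPM), overlapped between BCS-treated and Ctr1-null cells. The value of Ddb2 is uncertain, because 23.8% of its exon length overlaps Acp2 on the opposite strand, a gene with a mean of 3325 counts against 341 for Ddb2, and whether strand was used in counting is not given in the sources used here.

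The stress and metabolism genes other than Sesn2 did not follow it. Sesn1, the other sestrin here, averaged 29.8, 27.9 and 27.2 CPM in BCS-treated, Ctr1-null and wild type cells. Fdxr, the mitochondrial ferredoxin reductase, lay between 6.91 and 8.94 CPM in all 9 libraries. Dram1, a lysosomal protein of autophagy, averaged 18.0, 18.3 and 14.1 CPM in BCS-treated, Ctr1-null and wild type cells. Tigar, a phosphatase that lowers glycolytic flux, averaged 22.8 ± 2.14 CPM with BCS, against 26.5 ± 6.27 CPM in Ctr1-null and 31.2 ± 5.03 CPM in wild type cells. None of these 4 was called, and each overlapped between BCS-treated and Ctr1-null cells.

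**Figure D3:**
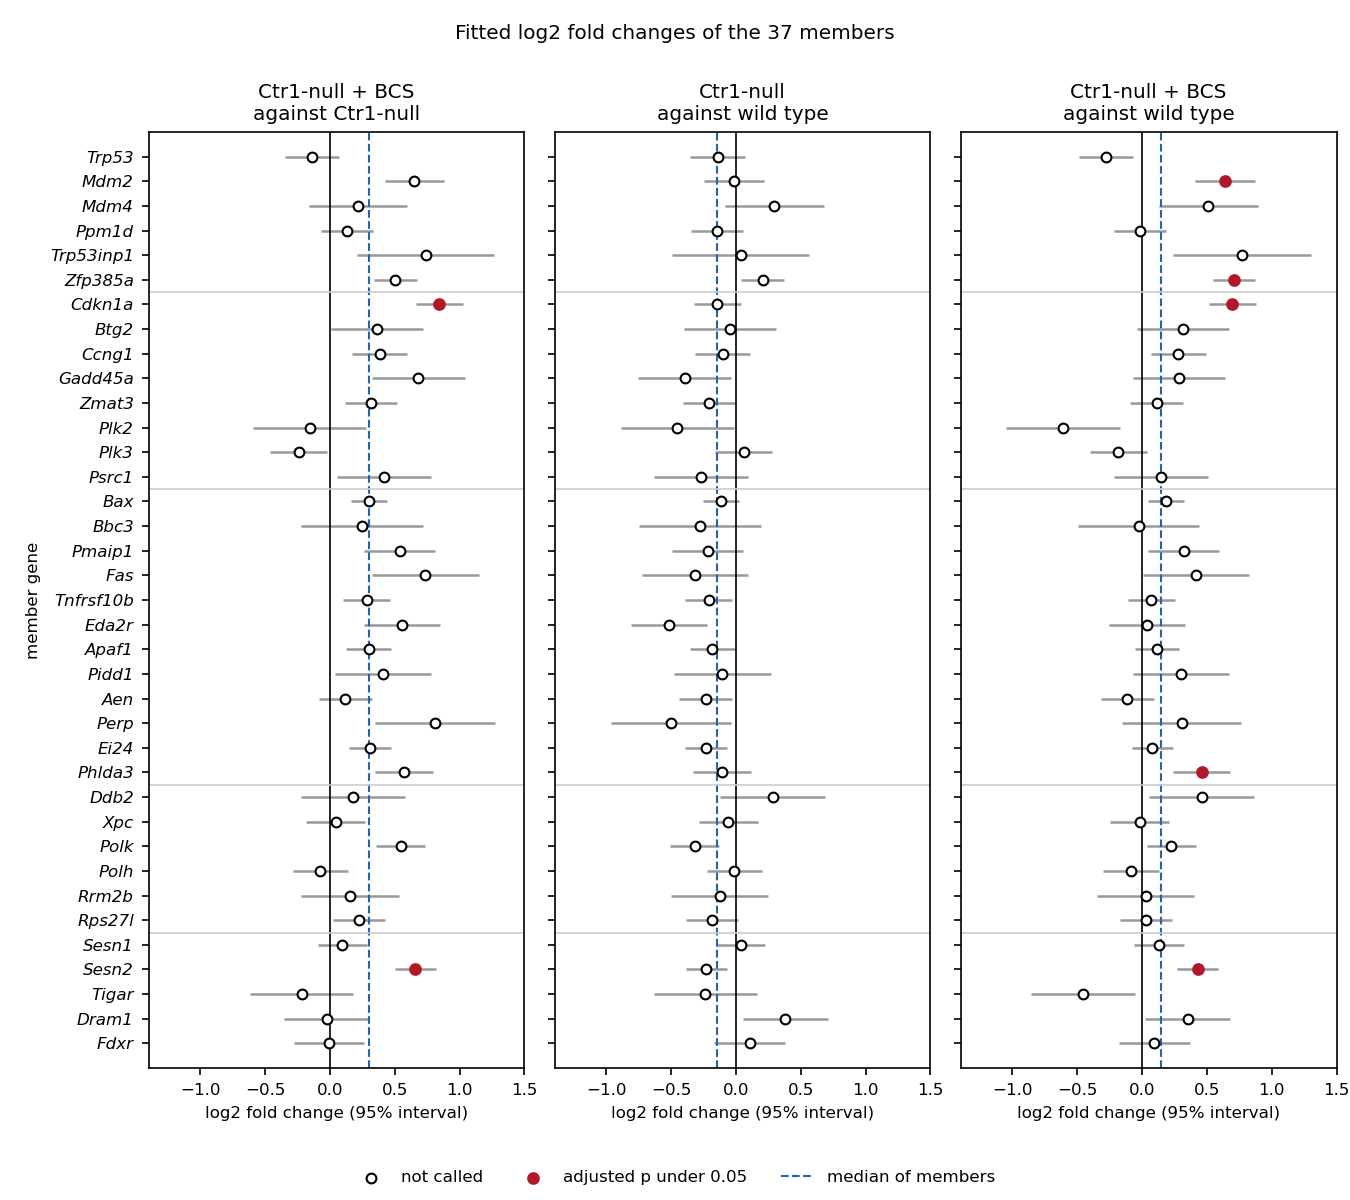
Fitted log2 fold changes (x axis, point) with 95% intervals (line) of the 37 members (rows, by role) in BCS-treated against Ctr1-null cells, Ctr1-null against wild type cells and BCS-treated against wild type cells. Filled red points are called at an adjusted p under 0.05 (2, 0 and 5 members), and the dashed line is the median of the members (0.30, -0.15 and 0.15).

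Without BCS, most members lay lower in Ctr1-null than in wild type cells. Against wild type, 29 of the 37 had a negative log2 fold change in Ctr1-null cells and 8 a positive one, with a median of -0.15 against 0.01 for all genes tested. No member was called by edgeR, against 0.0109% of all genes. At an unadjusted p under 0.05 there were 2 members with a positive fold change, against 9.08% of all genes, and 11 with a negative one, against 8.52%. limma-voom called 0 members, against 0.0326% of all genes, and DESeq2 called 4 (Eda2r, Ei24, Polk and Sesn2, all lower), against 5.74%. Every Ctr1-null library lay below every wild type library in 11 members, against 8.62% of all genes, and above in 1, Zfp385a, against 9.49% of all genes. The 11 became 6 when counts were scaled by library size alone, where 6.87% of all genes lay wholly below. They became 21 without wild type replicate 1, where 25.6% of all genes lay wholly below. All 12 apoptosis and death receptor genes had a negative fold change, and 6 of them were among those 11.

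The smallest p-values belonged to Eda2r, Polk, Ei24, Sesn2 and Zfp385a. edgeR gave log2 fold changes of -0.52 ± 0.13 for Eda2r (adjusted p = 0.129), -0.32 ± 0.08 for Polk (adjusted p = 0.131), -0.23 ± 0.07 for Ei24 (adjusted p = 0.164), -0.23 ± 0.07 for Sesn2 (adjusted p = 0.164) and 0.20 ± 0.07 for Zfp385a (adjusted p = 0.207). Their library values are given above, and in the first 4 the Ctr1-null libraries were the lowest 3 of 9. Without wild type replicate 1, edgeR called 6 of 37 members, a share near the 17.6% of all genes called in that fit, of which Eda2r (adjusted p = 0.0118), Polk (0.0275), Ei24 (0.0380), Perp and Plk2 were lower and Dram1 higher. Ctr1-null replicate 1 was the lowest of all 9 libraries in 16 members, among them Fas, Psrc1, Bbc3 and Trp53inp1. Without it the median of the members was -0.11.

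**Figure D4:**
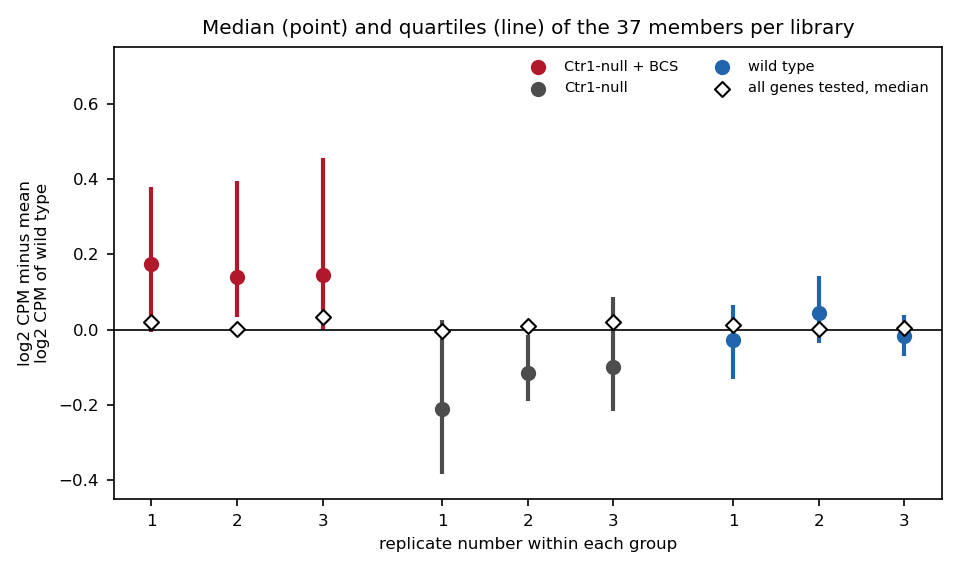
Median (point) and quartiles (line) over the 37 members of log2 CPM minus the mean log2 CPM of wild type, for each library by group and replicate, with the median over all genes tested as open diamonds. The members' medians are 0.17, 0.14 and 0.14 in BCS-treated, -0.21, -0.12 and -0.10 in Ctr1-null and -0.03, 0.04 and -0.02 in wild type libraries, and the diamonds stay near 0.

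Against wild type, BCS-treated Ctr1-null cells had 5 members called, all higher: Cdkn1a, Mdm2, Zfp385a, Phlda3 and Sesn2. In this comparison 15.8% of all genes tested were called, so that 5 of 37 members is a share near the background. The log2 fold changes of Cdkn1a and Sesn2 were 0.70 ± 0.08 (edgeR adjusted p = 0.00462) and 0.43 ± 0.07 (adjusted p = 0.00846). Cdkn1a, Mdm2, Sesn2 and Zfp385a were called in all 19 alternative analyses and Phlda3 in 15, the exceptions being the fits without BCS-treated replicate 1 (adjusted p = 0.0535) or 3 (0.0766) and without wild type replicate 2 (0.0683) or 3 (0.0793). Without wild type replicate 1, 13 of 37 members were called, a share near the 31.7% of all genes called in that fit: these 5, then Ddb2, Dram1, Mdm4, Pidd1 and Trp53inp1, all higher, and Plk2, Tigar and Trp53, all lower.

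Over all members, 28 had a positive fold change and the median was 0.15, against 0.01 for all genes tested. BCS-treated libraries lay wholly above wild type in 15 members, against 20.0% of all genes, and wholly below in 4 members, Trp53, Plk2, Plk3 and Tigar, against 17.1% of all genes. When wild type replicate 1 was left out, 25 members were positive with a median of 0.12, 19 lay wholly above, against 33.5% of all genes, and 5 wholly below, against 31.1%. This comparison shares its libraries with the other 2, so their values are not independent. Taking all 9 libraries at once, the 3 BCS-treated libraries were the 3 highest in 13 members (35.1%) and in 1606 of 18408 genes tested (8.72%). The 3 Ctr1-null libraries were the 3 lowest in 9 members (24.3%), namely Cdkn1a, Gadd45a, Bax, Tnfrsf10b, Eda2r, Apaf1, Ei24, Polk and Sesn2, and in 256 of all genes (1.39%). The wild type libraries were the 3 highest in 0 members, against 5.63% of all genes, and the 3 lowest in 1, against 6.39%.

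Levels among members spanned a wide range. Per kilobase of exon, the mean over all libraries ran from 1.92 CPM per kb for Rrm2b to 165 CPM per kb for Rps27l, with Ccng1 at 159, Cdkn1a at 83.7, Bax at 72.1, Phlda3 at 68.6, Mdm2 at 57.8 and Trp53 at 45.5 CPM per kb. Members that overlapped between BCS-treated and Ctr1-null cells stood between Rrm2b at the low end and Plk2 (49.6 CPM per kb). In each of the 6 members above Plk2 every BCS-treated library lay above every Ctr1-null library, against 13.4% of all genes. Plk2 was picked as the highest member that overlapped, so the lack of overlap above it comes with that choice. Low members such as Gadd45a (4.97 CPM per kb) and Eda2r (5.36 CPM per kb) lay wholly higher with BCS too.

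Most of the other known p53 targets, a list of 45 further genes of which 43 were tested, lay higher with BCS. Like the members and the lists below, these genes were chosen with earlier results of these data known, so they are not independent support. Against Ctr1-null cells 33 of 43 had a positive log2 fold change, against 50.3% of all genes, with a median of 0.13. Without overlap 19 lay above, against 13.4% of all genes, and 1, Gdf15, was called, against 0.0543%. Gdf15, a secreted stress cytokine that is also known to respond to ATF4, was at 14.2, 12.9 and 17.5 CPM with BCS, against 4.26, 5.56 and 6.61 CPM in Ctr1-null and 4.72, 4.92 and 4.55 CPM in wild type cells. Its BCS-treated libraries were far above the rest (log2 fold change 1.44 ± 0.17, edgeR adjusted p = 0.0293), and it stayed called in 9 of 19 alternatives, losing the call without any of the 6 libraries compared (adjusted p 0.0557 to 0.144), without wild type replicate 2 (0.0755) or 3 (0.0793), with only the groups compared (0.0787) and with the replicate block (0.0930). Against wild type, 8 of the 43 were called, a share near the 15.8% of all genes: Gdf15 (1.65 ± 0.18), Ak1, an adenylate kinase (0.53 ± 0.08), Zfp365 (0.53 ± 0.09) and 4 more were higher, and Pcna, the replication clamp, was lower (-0.42 ± 0.10, edgeR adjusted p = 0.0255), a call lost without BCS-treated replicate 1 (0.0695) or 3 (0.0991) without wild type replicate 2 (0.0969) or 3 (0.101) and with the replicate block (0.0602). In Ctr1-null against wild type cells 0 of the 43 were called. At an unadjusted p under 0.05, 2 were higher and 3 lower, against 9.08% and 8.52% of all genes. The smallest p-values there were those of Ddit4 (-0.51 ± 0.13, edgeR adjusted p = 0.128) and Rap2b (-0.35 ± 0.09, adjusted p = 0.129). Leaving out wild type replicate 1, 18 of the 43 were called in BCS-treated and 8 in Ctr1-null against wild type cells, beside the 31.7% and 17.6% of all genes given above.

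Genes for kinases, acetyltransferases and other proteins that act upstream of p53 were a further list. Of its 18 genes, 0 were called in BCS-treated against Ctr1-null cells by edgeR, and the median was -0.03. At an unadjusted p under 0.05, 0 were higher and 3 lower, against 8.34% and 6.37% of all genes. The smallest p-values there were those of Hipk2, a kinase of p53 (-0.46 ± 0.15, adjusted p = 0.225), and Nqo1, a quinone reductase that stabilises p53 (-0.78 ± 0.30, adjusted p = 0.282). Nqo1 was uneven in Ctr1-null cells at 149, 66.8 and 83.6 CPM, against 72.0, 56.6 and 45.3 CPM with BCS and 57.9, 35.4 and 37.3 CPM in wild type cells, and its difference between Ctr1-null and wild type cells was not called either (1.19 ± 0.31, adjusted p = 0.129). Sirt1, a deacetylase of p53, was not called in Ctr1-null against wild type cells (-0.49 ± 0.14, edgeR adjusted p = 0.141). In that comparison 0 of the 18 were called, against 0.0109% of all genes. At an unadjusted p under 0.05, 4 were higher and 1 lower, against 9.08% and 8.52% of all genes. Every Ctr1-null library lay above every wild type library in 7 of the 18, against 9.49% of all genes, and below in 1, against 8.62%. In BCS-treated against wild type cells Sirt1 was lower (-0.69 ± 0.14, edgeR adjusted p = 0.0138) and Prkdc, the DNA-dependent protein kinase, higher (0.31 ± 0.08, adjusted p = 0.0270). Both calls were lost without BCS-treated replicate 3 (0.0502 for Sirt1 and 0.107 for Prkdc), wild type replicate 2 (0.0583 and 0.104) or wild type replicate 3 (0.0610 and 0.105), and that of Prkdc also without BCS-treated replicate 1 (0.0872), with no filter (0.0575) and with the replicate block (0.0681). Sirt1 was called in 16 of 19 alternatives and Prkdc in 13. In the fit that left out wild type replicate 1, 5 of the 18 were called in BCS-treated and 4 in Ctr1-null against wild type cells. These shares are near the 31.7% and 17.6% of all genes called in that fit.

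A further list held cell cycle genes known to be repressed downstream of p21 through the DREAM complex, and most lay lower with BCS. Whether p21 or DREAM had a part in this was not tested. Against Ctr1-null cells 19 of 20 had a negative log2 fold change, with a median of -0.23. All 3 BCS-treated libraries lay below all 3 Ctr1-null libraries in 11, against 10.9% of all genes, and 1 was called, against 0.0543%. Mki67, the proliferation marker, was at 334, 329 and 325 CPM with BCS, against 479, 456 and 472 CPM in Ctr1-null and 486, 449 and 461 CPM in wild type cells. It fell by 0.51 ± 0.07 on the log2 scale against Ctr1-null cells (edgeR adjusted p = 0.0460), the one call of the 20, which held in 6 of 19 alternatives and was lost without any of the 6 libraries compared (adjusted p 0.0979 to 0.274), without wild type replicate 2 (0.115) or 3 (0.124), with upper-quartile, library-size or authors' scaling (0.0542, 0.0680 and 0.0581), with only the groups compared (0.0866) and with the replicate block (0.158). Against wild type, 7 of 20 were called, all lower, beside the 15.8% of all genes, including Plk1 (-0.51 ± 0.07), Mki67 (-0.50 ± 0.07) and Ccne1, cyclin E1 (-0.74 ± 0.12, edgeR adjusted p = 0.00663). In Ctr1-null against wild type cells 0 were called. At an unadjusted p under 0.05, 1 was higher and 2 lower, against 9.08% and 8.52% of all genes. Ect2 (-0.47 ± 0.15, edgeR adjusted p = 0.180) and Cdc20 (-0.29 ± 0.11, adjusted p = 0.227) had the smallest p-values there. Without wild type replicate 1, 14 of the 20 were called in BCS-treated and 4 in Ctr1-null against wild type cells, all lower. Of all genes, 31.7% and 17.6% were called in that fit.

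**Figure D5:**
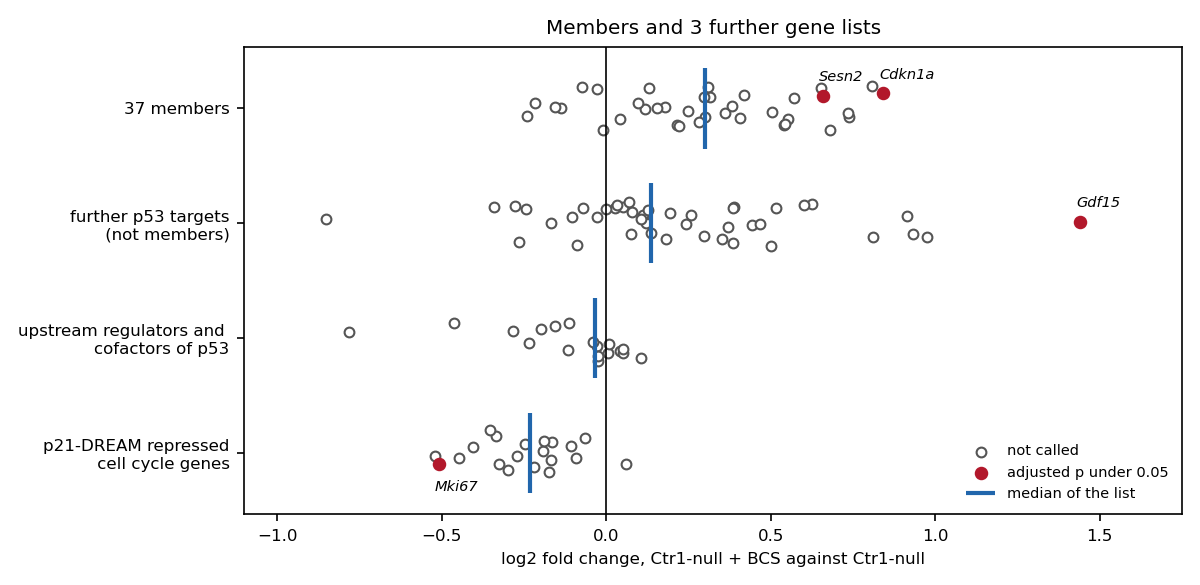
Log2 fold change in BCS-treated against Ctr1-null cells (x axis) of the 37 members and of 3 further gene lists (rows), 1 point a gene, jittered vertically. Called genes are red and named, and the blue bars are the medians (0.30, 0.13, -0.03 and -0.23).

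Among markers of other cell types, the sums of 3 lists differed between groups without overlap. The summed level of the 7 fat cell markers was 67.4 to 81.8 CPM with BCS and 58.8 to 85.5 CPM in Ctr1-null cells, against 24.4 to 30.3 CPM in wild type cells. It thus stood apart from wild type in both null groups and overlapped between BCS-treated and Ctr1-null cells. The sum of the 5 neural markers was 132 to 157 CPM with BCS and 182 to 214 CPM in Ctr1-null cells, against 162 to 255 CPM in wild type cells, so it lay wholly lower with BCS in both comparisons. Most of it was Nes, which encodes nestin, an intermediate filament of progenitor cells, at 128, 109 and 107 CPM with BCS, against 175, 157 and 150.1 CPM in Ctr1-null and 223, 140 and 144 CPM in wild type cells, while Gfap and Olig2 were at or near 0. Sox2 averaged 13.2, 19.5 and 17.3 CPM in BCS-treated, Ctr1-null and wild type cells. Tubb3, at means of 12.4, 13.1 and 8.64 CPM, was not lower with BCS than in wild type cells. The sum of the 4 muscle markers was 5.74 to 10.95 CPM with BCS and 4.50 to 7.64 CPM in Ctr1-null cells, against 3.87 to 4.13 CPM in wild type cells, with Myod1 at 0 in all 9 libraries. Most of the difference was Des, at means of 5.31, 2.67 and 0.821 CPM in BCS-treated, Ctr1-null and wild type cells. Acta1, at 2.78, 3.44 and 3.18 CPM in the same order, was not higher with BCS, and Myog was near 0. The part of the fat cell and muscle lists in the members' values was not tested either. Epithelial, endothelial, and macrophage and blood sums lay between 1.16 and 38.0 CPM in every library, and each overlapped between BCS-treated and Ctr1-null cells. Adgre1 and Hbb-bs were at 0 in all 9.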

How the data were processed

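RNA was sequenced from 9 libraries of mouse embryonic fibroblasts in 3 groups. Libraries were made with a TruSeq RNA kit, per the labels' protocols. Per the submitters' processing notes the build was GRCm38 and the tools were FastQC, STAR, Salmon and DESeq2, with no version or role stated. The table used holds estimated counts per gene, deposited by the authors as whole numbers and not normalised. A second deposited table holds the same values divided by the authors into scaled signal, and was used here for 1 alternative, with the authors' factors as offsets.

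Of 52661 rows, 52566 matched GENCODE M21 by Ensembl identifier without version, 50410 of them with the same version, and 17728 had no counts. edgeR 4.0.16 (R 4.3.3) filtered genes (filterByExpr, minimum count 10, minimum total 15), scaled by TMM and fitted all 9 libraries with 3 groups by quasi-likelihood. This left 6 residual degrees of freedom, and the common BCV (biological coefficient of variation) was 0.169. Benjamini-Hochberg adjustment of the 2-sided p-values ran over 18408 genes. The standard error of a log2 fold change is its size over the root of the F statistic, and includes the spread between libraries. The limit that a count of 0 allows (3 counts) was 0.0546 to 0.0811 CPM and covers counting error only. The fit was tested on simulated counts.

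The members and gene lists were chosen with earlier results of these data known. Library values are given, by rule, for Trp53, Mdm2, Mdm4, Cdkn1a, each called member and the 5 members with the smallest p in each comparison. From each further list up to 3 called genes in each direction are named, or 2 with the smallest p. Fas, Bax and single libraries of Trp53inp1, Plk2 and Perp were shown after their values were seen. Alternatives were other scalings, no or a stricter filter (1 CPM in 3 libraries), DESeq2 1.42.0, limma-voom 3.58.1, only the groups compared, a replicate block and leaving out each library. Counts of members that do not overlap were recomputed as an addition after seeing the data. No libraries were left out, and no 2 libraries of the same group agreed within sampling noise (chi-square per degree of freedom 6.10 to 95.4). Libraries of different groups were not compared in this way. Plots used matplotlib 3.10.9 under Python 3.11.15.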

Additional observations from a re-analysis of the deposited data

How the results depend on the processing

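The median log2 fold change of the members kept its direction in every alternative run, in all 3 comparisons. In BCS-treated against Ctr1-null cells it lay between 0.23 and 0.35, with 0.2298 without Ctr1-null replicate 1 as the lowest and 0.3418 without Ctr1-null replicate 3 as the highest of the fits that left out a library. Against wild type it was 0.1873 with upper-quartile factors and 0.2444 with library size only, a scaling under which the median of all genes was 0.105.

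Members called in BCS-treated against Ctr1-null cells numbered 6 with no filter and 17 with DESeq2, and 0 to 7 when a library was left out. In BCS-treated against wild type they numbered 8 with upper-quartile factors, 10 with library size only and 11 with DESeq2, beside 2835, 2848 and 4081 of all 18408 genes. Members called there numbered 8 with no filter, beside 2882 of 34933 genes, and 4 to 13 when a library was left out. In Ctr1-null against wild type they numbered 4 with DESeq2 and 0 to 6 when a library was left out, the 6 being without wild type replicate 1. Over all genes, Ctr1-null against wild type gave 4 calls with DESeq2's size factors, upper-quartile factors, library size only, the authors' factors or the stricter filter, 265 with no filter, 1056 with DESeq2, 6 with limma-voom, 1 with only the groups compared and 1 to 3248 when a library was left out. BCS-treated against Ctr1-null gave 114 with no filter, 711 with DESeq2 and 0 to 185 when a library was left out, and BCS-treated against wild type 596 to 5832 when a library was left out. The cause was not tested.

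With the replicate number as a block, members called were 0 in BCS-treated against Ctr1-null, 5 in BCS-treated against wild type and 0 in Ctr1-null against wild type, and genes called were 2, 1543 and 1. Deviations of libraries with the same number correlated at -0.32 to 0.28, and those with different numbers at -0.29 to 0.41. With 3 libraries a group, these correlations cannot show whether the numbers pair the libraries. For single named genes and counts without overlap, 460 of the recomputed values stayed the same, 57 were weaker and 17 stronger. For a gene this refers to its direction and side of the threshold, and for a count without overlap to its size alone. Depth limits the low members most, such as Ddb2, Fdxr and Gadd45a.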
